A study of Homo sapiens with 27 samples.

Results

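The 46 genes described here are the subunits of the transcription factor NF-kB, its inhibitors, the signalling proteins around it and a set of inflammatory genes known as its targets. They were chosen by gene symbol as known members and targets of the pathway, with earlier results of these data known. The read count tables listed 24379 symbols (22Rv1), 23532 symbols (DU145) and 23462 symbols (PC3). Shares of members set beside shares of all genes below are therefore a description. NF-kB is a family of dimers built from the proteins encoded by NFKB1, NFKB2, RELA, RELB and REL. In resting cells the dimers are held in the cytoplasm by inhibitors such as NFKBIA; a signal from a receptor activates a kinase complex that marks the inhibitor for destruction, and the freed dimer enters the nucleus and switches on its targets. Those targets include the inhibitors themselves, so NFKBIA, TNFAIP3 and BIRC3 are feedback genes as well as markers of the pathway, and DU145 and PC3 cells are known for NF-kB activity without an added signal.

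The study compared cells carrying a control guide RNA with cells in which RIPK2 had been targeted with CRISPR guide RNAs. RIPK2 is a kinase that links the intracellular sensors NOD1 and NOD2 to NF-kB. Bulk RNA sequencing covered 3 human prostate cancer lines, 22Rv1, DU145 and PC3, with 27 libraries in all. In each line 3 libraries came from control gRNA cells with the genotype label WT, 3 from a first RIPK2 knockout population (gRNA1 in 22Rv1, gRNA2 in DU145 and PC3) and 3 from a second one made with gRNA10. Whether a population is 1 clone or a pool of edited cells is not given in the labels, and neither is whether replicates are separate cultures, so the p-values measure the spread between these libraries, which may be technical. No ligand or other treatment is named, so the levels are those of cells in culture.

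Library totals ran from 17958558 to 20650819 counts. RIPK2 was lower than in every control library in all 18 libraries labelled knockout. Its counts in 22Rv1 were 296, 338 and 301 in the controls, 177, 154 and 140 with gRNA1 and 108, 104 and 101 with gRNA10. In PC3 they were 1191, 1192 and 1256, then 441, 408 and 406 with gRNA2 and 527, 588 and 579 with gRNA10. In DU145 the controls held 820, 926 and 891 counts, gRNA2 199, 274 and 221, and gRNA10 723, 670 and 688, so the fall with gRNA10 was small (log2 fold change -0.29, SE 0.11, adjusted p = 0.0614) and did not pass the test. It passed in 5 of 15 alternatives, among them the fit without the third gRNA2 library (adjusted p = 0.014). The DU145 gRNA10 libraries are labelled RIPK2 knockout, and what is given for them below refers to that label, with RIPK2 still at 670 to 723 counts. A pair of libraries stood apart from the other libraries of their group. The third gRNA1 library of 22Rv1 took 16.7% of its counts from mitochondrial genes, against 0.515% to 2.10% in the other 8 libraries of the line, and the third gRNA2 library of DU145 had the lowest scaling factor of the series (0.902). Counts of called members in these lines, and the changes of some genes, are given with and without it. Among other genes, log2 fold changes with gRNA2 in DU145 were 1.39 for SOD2 (1.66 without the library), 1.72 for IER3 (1.32) and 0.96 for RELB (0.72). With gRNA1 in 22Rv1 they were 1.84 for NFKBIZ (1.54 without the library) and 1.55 for BCL3 (1.22). These calls were kept. Of the markers of leukocytes, which could also carry inflammatory genes, PTPRC held at most 6 counts in any library and CD3E at most 1 where it was listed, but CD14 and ITGAM, of myeloid cells, reached 62 and 59 counts in DU145. The epithelial genes EPCAM, KRT8, KRT18 and CDH1 together held 14749 counts or more in every library.

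The DNA in front of several of these genes carries the sequence that NF-kB dimers are known to bind. The windows below were picked from genes that rose with both guides in DU145. Genes not called with both guides there, among them NFKB1, REL and NFKBIB, had matches too and are not shown. The 250 bases before each RefSeq start (GRCh38.p14) were searched on both strands for a core of 10 letters, GGG followed by NNN (any 3 bases) and TTCC. Each window is 30 bases long, written 5′ to 3′ on the strand of the gene, with the match in capitals:
NFKBIA: tgactggcttGGAAATTCCCcgagcctgac
TNFAIP3: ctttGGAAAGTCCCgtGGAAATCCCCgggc
BIRC3: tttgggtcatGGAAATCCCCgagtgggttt
NFKBIZ: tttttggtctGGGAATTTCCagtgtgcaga
NFKB2: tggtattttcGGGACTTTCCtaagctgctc
SDC4: cgcttccactGGGGAATTCCgggcggggtg
LCN2: cagcactccgGGAATGTCCCtcactctccc
IL6: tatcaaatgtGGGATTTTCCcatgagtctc
In the GENCODE v29 annotation of the same genome, the windows of NFKBIA (chr14:35404811-35404840, minus strand), BIRC3 (chr11:102317275-102317304, plus), NFKBIZ (chr3:101827757-101827786, plus) and SDC4 (chr20:45348502-45348531, minus) lie outside any transcript. That of LCN2 (chr9:128149268-128149297, plus) lies in an intron of another LCN2 transcript, and that of IL6 (chr7:22727117-22727146, plus) in introns of other IL6 transcripts and of STEAP1B. Those of NFKB2 (chr10:102395674-102395703, plus) and TNFAIP3 (chr6:137867188-137867217, plus) overlap an exon of another transcript of the same gene. TNFAIP3 has 2 matches within its window, and every other window shown has 1.

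RefSeq windows were found for 35 of the 46 genes, and 19 of the 35 (54.3%) had at least 1 match, against 1875 of all 27305 genes with a window (6.87%). Counted per window, since a gene can have several starts, 22 of 58 member windows (37.9%) and 1989 of all 35093 (5.67%) held the core. The broader consensus of the kB site, which has the core's length and overlaps it, gave 21 of 35 member genes (60%) against 3221 of all genes (11.8%). Of the 16 genes with a window that rose with both guides in DU145, 11 had a core match, and of the 14 that had a window and were not called with both guides there, 8 had one. A match describes letters in a window and no site, binding or cause.

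In control cells the 3 lines expressed the set at different levels, and DU145 had the highest level of most of its members. Levels are given as CPM (counts scaled to library size within the line), and the lines were scaled separately, so orders between lines are a description. Of the 30 members tested in all 3 lines, DU145 was highest for 22. Its control libraries overlapped those of the other lines for none of these 22. For 21 members 22Rv1 was lowest, without overlap for 18. The same counts were not made over all genes, so they are not shown to be particular to this set. NFKBIA, the inhibitor that resynthesises after a signal, stood at 198, 193 and 204 CPM in DU145 controls, 54.6, 53.1 and 54.2 in 22Rv1 and 12.8, 15.0 and 13.7 in PC3. The 2 members highest in 22Rv1 were EFNA1 and SOD2, the mitochondrial superoxide dismutase (188, 203 and 178 CPM). The 6 highest in PC3 were NFKBIZ, PTGS2, TNIP1, CYLD and MAP3K8, without overlap, and RELA, whose PC3 and DU145 controls overlapped.

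The number of members that could be tested also differed. A filter on low counts left 31 members in 22Rv1, 41 in DU145 and 38 in PC3. In 22Rv1, SAA1, CCL2 and IL1A were not listed, and 12 listed members did not pass: VCAM1, CSF2, LTB, IL32, C3, LCN2, PTX3, CCL5, CCL20, IL6, IL1B and TNF, none of which exceeded 14 counts in any library. In DU145 the 5 untested members were VCAM1, CX3CL1, IL1A, IL1B and TNF, and in PC3 the 8 were VCAM1, SAA1, CX3CL1, CCL5, CCL20, IL6, IL1A and TNF. With all libraries, TNF, VCAM1 and IL1A were thus tested in no line. Some members fell short of the filter's threshold in at least 1 control library (1 in 22Rv1, 3 in DU145 and 6 in PC3). Counts of rises are therefore also given without them. They were RELB in 22Rv1, CSF2, LTB and PTGS2 in DU145, and TRAF1, CSF2, LTB, IL32, C3 and LCN2 in PC3. The p-values of their rises are not used as support, since a gene that enters the test through a high group had to differ. CSF2 in DU145 also reached the threshold in some control libraries, and TRAF1 in PC3 had no called rise.

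**Figure D1:**
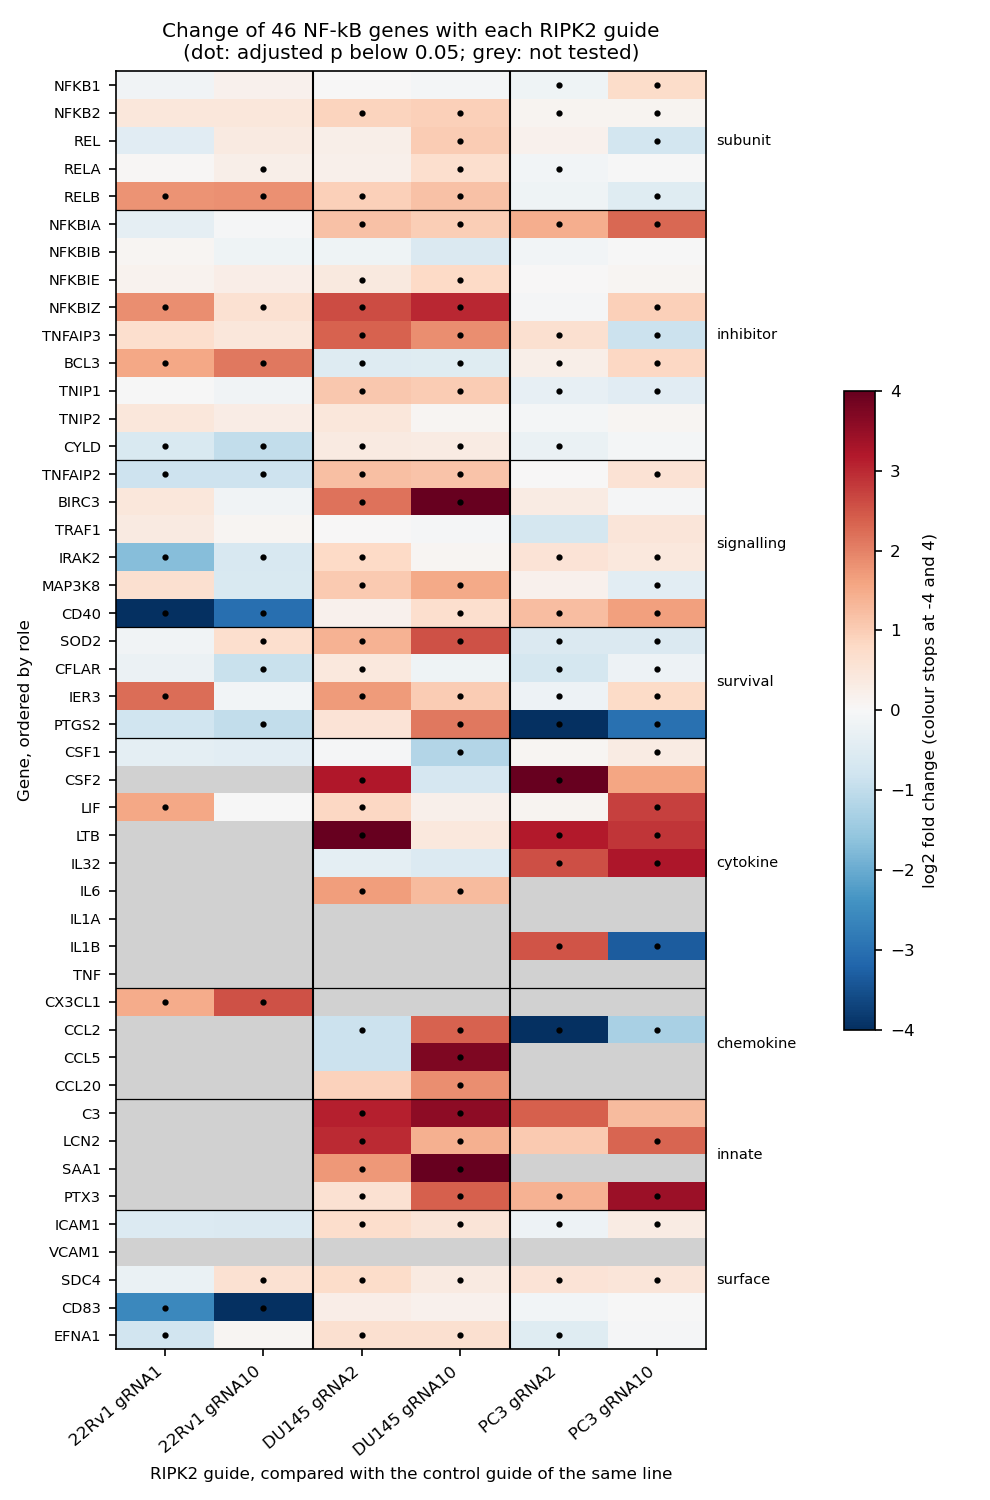
Log2 fold change of each of the 46 genes with each RIPK2 guide against the control guide of the same line, genes in rows by role and contrasts in columns. Dots mark an adjusted p below 0.05 and grey marks genes not tested; colours for genes at a few counts in the controls, such as CSF2 in PC3, rest on those counts. The DU145 columns are mostly red, with 26 and 28 members higher, while the other lines show rises and falls side by side.

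In DU145 most of the members tested rose with each guide taken singly. With gRNA2, 26 of the 41 members tested were higher and 2 lower (adjusted p below 0.05, edgeR's quasi-likelihood F test with Benjamini-Hochberg adjustment over all genes), where 17.1% of all genes were called higher and 17.0% lower. With gRNA10, 28 were higher and 2 lower, against 20.2% and 19.8% of all genes. The median log2 fold change over the members tested was 0.73 and 0.96, and over all genes 0.01 and 0.00. Among the 38 members whose control libraries alone passed the filter, 24 and 27 were higher, and 21 with both guides. Both contrasts share the DU145 control libraries, and the members were chosen with earlier results of these data known. Rises with both guides were called for 21 members (8.05% of all genes), a fall with both for 1, BCL3 (8.02% of all genes), and opposite calls for 1, CCL2 (2.40%). Without the third gRNA2 library these counts were 23 rises and 3 falls. With each library left out in turn, rises with both guides ranged from 16 to 23, and under the other alternatives from 18 to 21. Without the third gRNA2 library, falls with single guides went from 2 to 4 (gRNA2) and from 2 to 5 (gRNA10), beside 27 and 30 rises. The 30 include TNF, which was tested only with a library left out. TNF passed the filter there through gRNA10, where it is high, so its rise supports nothing.

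Of the 5 subunit genes of DU145, 2 rose with gRNA2 and 4 with gRNA10. NFKB2 and RELB, which form the dimer of the alternative arm, rose with both guides. NFKB2 stood at 114, 111 and 118 CPM in the controls, 202, 186 and 249.5 with gRNA2 and 218, 229 and 219 with gRNA10, with log2 fold changes of 0.89 (SE 0.10, adjusted p = 0.0002) and 0.95 (SE 0.10, adjusted p = 7.12e-05). RELB stood at 18.9, 19.4 and 23.0 CPM, then 39.1, 27.8 and 52.0, then 42.3, 47.3 and 49.5, with changes of 0.96 (SE 0.19, adjusted p = 0.0039) and 1.18 (SE 0.19, adjusted p = 0.000825). For both genes every gRNA2 and gRNA10 library lay above every control library. RELA, the main activating subunit, passed the threshold with gRNA10 and not with gRNA2: 149, 148 and 155 CPM in the controls, 180.0, 153 and 184 with gRNA2 (0.19, SE 0.090, adjusted p = 0.121) and 219.7, 250.3 and 242 with gRNA10 (0.66, SE 0.090, adjusted p = 0.000278). The guides differed for RELA (-0.46 for gRNA2 against gRNA10, adjusted p = 0.00261) and likewise for REL, the haematopoietic subunit. REL had 10.7, 10.9 and 9.66 CPM in the controls, 8.34, 15.9 and 12.4 with gRNA2, where the libraries overlapped, and 21.2, 21.2 and 20.9 with gRNA10 (1.01, SE 0.19, adjusted p = 0.00185). NFKB1, the precursor of p50, was not called: its libraries overlapped at 81.1, 74.0 and 81.7 CPM, then 78.9, 79.8 and 82.9, then 72.6, 73.8 and 79.3.

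Of the 9 genes grouped as inhibitors, which include the nuclear IkB proteins NFKBIZ and BCL3, 6 rose and BCL3 fell with each guide in DU145. NFKBIA went from 198, 193 and 204 CPM to 446, 404 and 476 with gRNA2 and 380.2, 410.5 and 378 with gRNA10, changes of 1.16 (SE 0.084, adjusted p = 8.47e-06) and 0.97 (SE 0.084, adjusted p = 1.51e-05). TNFAIP3, which encodes the ubiquitin-editing enzyme A20, went from 11.7, 10.5 and 10.2 to 48.8, 55.1 and 62.0 and to 39.6, 39.8 and 37.9 (2.35, SE 0.11, and 1.85, SE 0.11; adjusted p = 8.59e-07 and 1.37e-06). NFKBIZ, the nuclear IkB protein that acts as a co-activator on late genes, went from 7.40, 8.05 and 6.93 to 45.8, 52.7 and 37.2 and to 61.9, 59.6 and 60.1 (2.60, SE 0.13, and 3.02, SE 0.13; adjusted p = 1.54e-06 and 2.58e-07). In all 3 genes the gRNA2 and gRNA10 libraries lay above the controls without overlap. The other rises were those of NFKBIE, TNIP1, a partner of A20, and CYLD, a deubiquitinase. TNIP1 rose by 1.07 and 1.02, with 136, 137 and 140.0 CPM in the controls and 262 or more in each gRNA2 or gRNA10 library. CYLD changed by only 0.37 and 0.34 and lost its call in 3 and 6 of the alternatives, with adjusted p up to 0.0819 and 0.0944; NFKBIE with gRNA2 (0.40) lost it in 3. BCL3, a nuclear IkB protein that pairs with p50 and p52, went from 143, 137 and 150.2 CPM to 116, 92.0 and 90.3 with gRNA2 and 88.0, 113 and 105 with gRNA10 (-0.53, SE 0.12, and -0.49, SE 0.12; adjusted p = 0.00725 and 0.00806).

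Among the signalling and survival genes of DU145, BIRC3 and SOD2 rose with both guides. BIRC3, which encodes the ubiquitin ligase cIAP2, stood at 24.2, 24.7 and 20.6 CPM in the controls, 91.1, 119 and 101 with gRNA2 and 516, 465 and 457 with gRNA10. The log2 fold changes were 2.17 (SE 0.12, adjusted p = 2.15e-06) and 4.37 (SE 0.13, adjusted p = 1.69e-08), and the guides differed from each other by -2.21 (adjusted p = 7.6e-07). SOD2 stood at 147, 146 and 146 CPM, then 449.9, 470.1 and 227, then 863, 850.1 and 838 (1.39, SE 0.22, and 2.54, SE 0.22; adjusted p = 0.00101 and 1.83e-05). The gRNA10 libraries lay above those of gRNA2 for both genes. Also higher with both guides were TNFAIP2 (1.22 and 1.15), MAP3K8, the kinase Tpl2 (1.03 and 1.51), and IER3, an early response gene (1.72 and 1.01). TRAF1, an adaptor of TNF receptors, was called with neither guide and in no other line. CFLAR, which blocks caspase-8, and IRAK2, a kinase of the interleukin-1 receptor, rose with gRNA2 (0.42 and 0.81), while CD40 rose with gRNA10 (0.69). PTGS2, the cyclooxygenase 2 gene, changed by 2.10 with gRNA10, the group through which it passed the filter. Without the third gRNA2 library, CFLAR fell with gRNA10 (-0.16, adjusted p = 0.0388) and the inhibitor NFKBIB with both guides (-0.54 and -0.57, adjusted p = 0.00437 and 0.000858).

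The acute-phase and antimicrobial genes C3, LCN2, SAA1 and PTX3 were all 4 higher with each guide in DU145. C3, the central complement protein, went from 22.0, 18.8 and 22.5 CPM to 255, 245 and 43.0 with gRNA2 and 258, 260.0 and 247 with gRNA10 (3.10, SE 0.51, and 3.59, SE 0.52; adjusted p = 0.00132 and 0.000395). LCN2, an iron-sequestering protein, went from 5.43, 3.12 and 2.93 to 39.9, 39.5 and 10.6 and to 11.6, 9.63 and 9.81 (2.97, SE 0.45, and 1.43, SE 0.45; adjusted p = 0.000833 and 0.0278). SAA1, serum amyloid A, went from 1.01, 0.863 and 1.22 to 5.76, 3.85 and 0.498 and to 17.0, 17.8 and 17.7 (1.72, SE 0.59, and 4.08, SE 0.55; adjusted p = 0.045 and 0.000248). In each of these genes the third gRNA2 library was far below the other gRNA2 libraries, and for SAA1 it lay below the controls, so that the gRNA2 and control libraries overlapped. Without that library the gRNA2 changes were 3.57 for C3, 3.38 for LCN2 and 2.22 for SAA1. SAA1 with gRNA2 lost its call in 12 alternatives, with adjusted p up to 0.184, PTX3 with gRNA2 (0.61) in 12, up to 0.146, and LCN2 with gRNA10 in 6, up to 0.0954. PTX3, a soluble pattern recognition protein, rose by 2.38 with gRNA10.

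**Figure D2:**
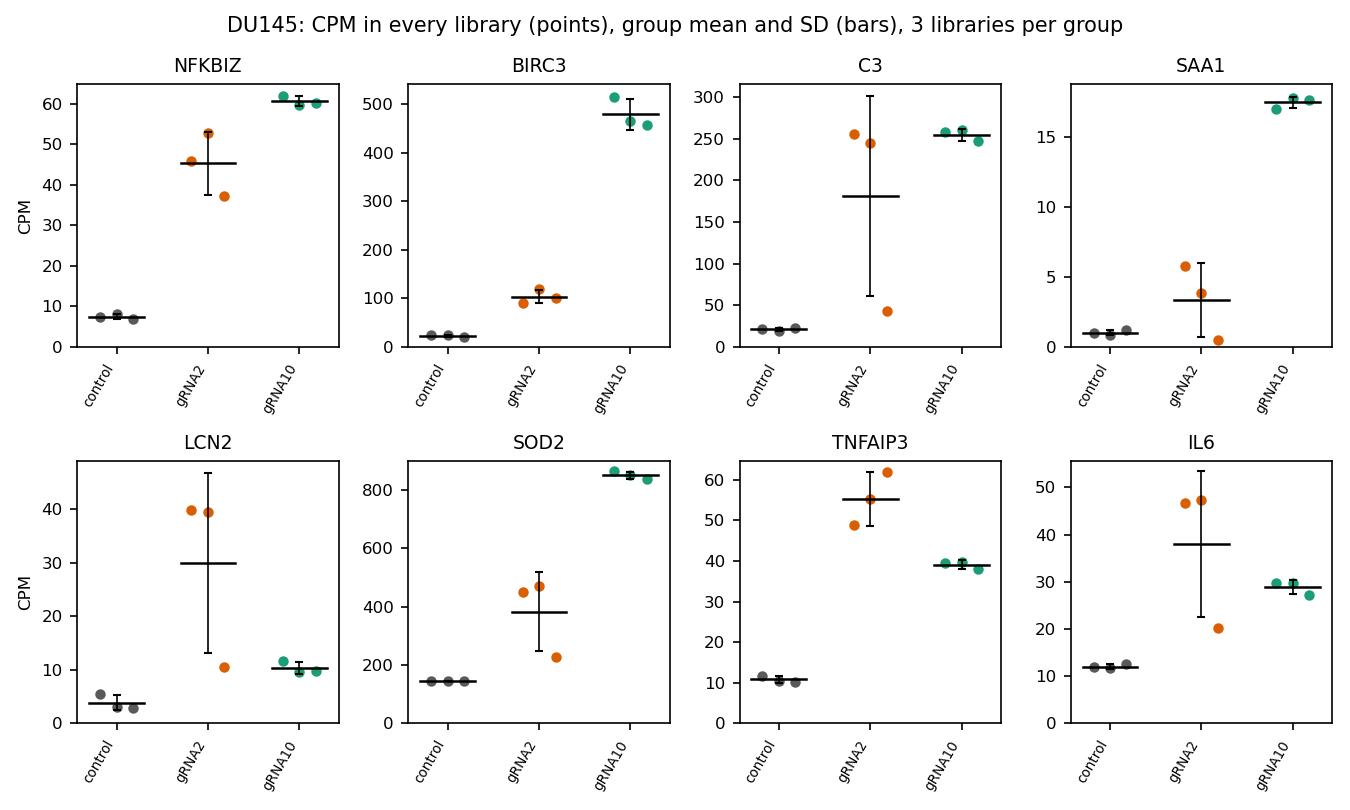
CPM of 8 members in DU145, with 1 point per library, the mean as a line and the SD as bars, and the control, gRNA2 and gRNA10 groups on the horizontal axis. The gRNA2 and gRNA10 libraries lie above the controls except the third gRNA2 library for SAA1, and that library is the lowest of its group for NFKBIZ, C3, LCN2, SAA1, SOD2 and IL6.

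Several cytokine genes of DU145 were called with 1 guide only, while IL6 rose with both. IL6, the interleukin that drives the acute-phase response, went from 11.9, 11.7 and 12.5 CPM to 46.6, 47.3 and 20.2 with gRNA2 and 29.8, 29.7 and 27.1 with gRNA10 (1.66, SE 0.26, and 1.26, SE 0.26; adjusted p = 0.00106 and 0.00343), and was 1.97 with gRNA2 without the third library. Without that library LIF was also higher with both guides (0.66 and 0.21, adjusted p = 6.85e-06 and 0.012) and IL32 lower with both (-0.80 and -0.54, adjusted p = 2.29e-05 and 0.000101), while with all libraries LIF passed with gRNA2 alone and IL32 with neither. CSF2, the growth factor GM-CSF, held 13, 8 and 17 counts in the controls, 90, 95 and 144 with gRNA2 and 11, 6 and 6 with gRNA10. LTB, the membrane-bound lymphotoxin beta, held 6, 6 and 9 counts, then 74, 66 and 230, then 7, 10 and 10. LTB passed the filter through gRNA2, while CSF2 also had control and gRNA10 libraries above the count of 10. Their changes with gRNA2, 3.20 and 4.24, are given as a description. With gRNA10 the libraries of CSF2 and LTB overlapped the controls, and LIF rose with gRNA2 (0.83). The LTB change was 3.33 without the third gRNA2 library. CSF1, the macrophage growth factor, fell with gRNA10 only (-1.19, adjusted p = 5.53e-05). Of the chemokine genes, all 3 tested rose with gRNA10. CCL5 held 24, 18 and 10 counts in the controls, 12, 14 and 1 with gRNA2 and 249, 211 and 216 with gRNA10 (3.75, adjusted p = 3.29e-05), and the same rise for CCL20 was 1.85. CCL20, which attracts lymphocytes and dendritic cells, held 195, 170 and 169 counts in the controls and 354, 506 and 108 with gRNA2, a change of 0.91 (adjusted p = 0.0803) that passed without the third gRNA2 library (1.30, adjusted p = 5.03e-06). CCL2, which attracts monocytes, held 66, 60 and 69 counts in the controls, fell to 29, 33 and 39 with gRNA2 (-0.86, adjusted p = 0.00435) and rose to 303, 323 and 331 with gRNA10 (2.35, adjusted p = 2.58e-06). In all, 23 of the 41 members differed between the guides, where 38.8% of all genes did (19.6% of all genes were lower with gRNA2 than with gRNA10). Without the third gRNA2 library 30 members differed, in a fit that also tested TNF. At the surface, ICAM1, an adhesion receptor for leukocytes, SDC4, a heparan sulfate proteoglycan, and EFNA1, an ephrin, rose with both guides by 0.35 to 0.73, and CD83 was called with neither.

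**Figure D3:**
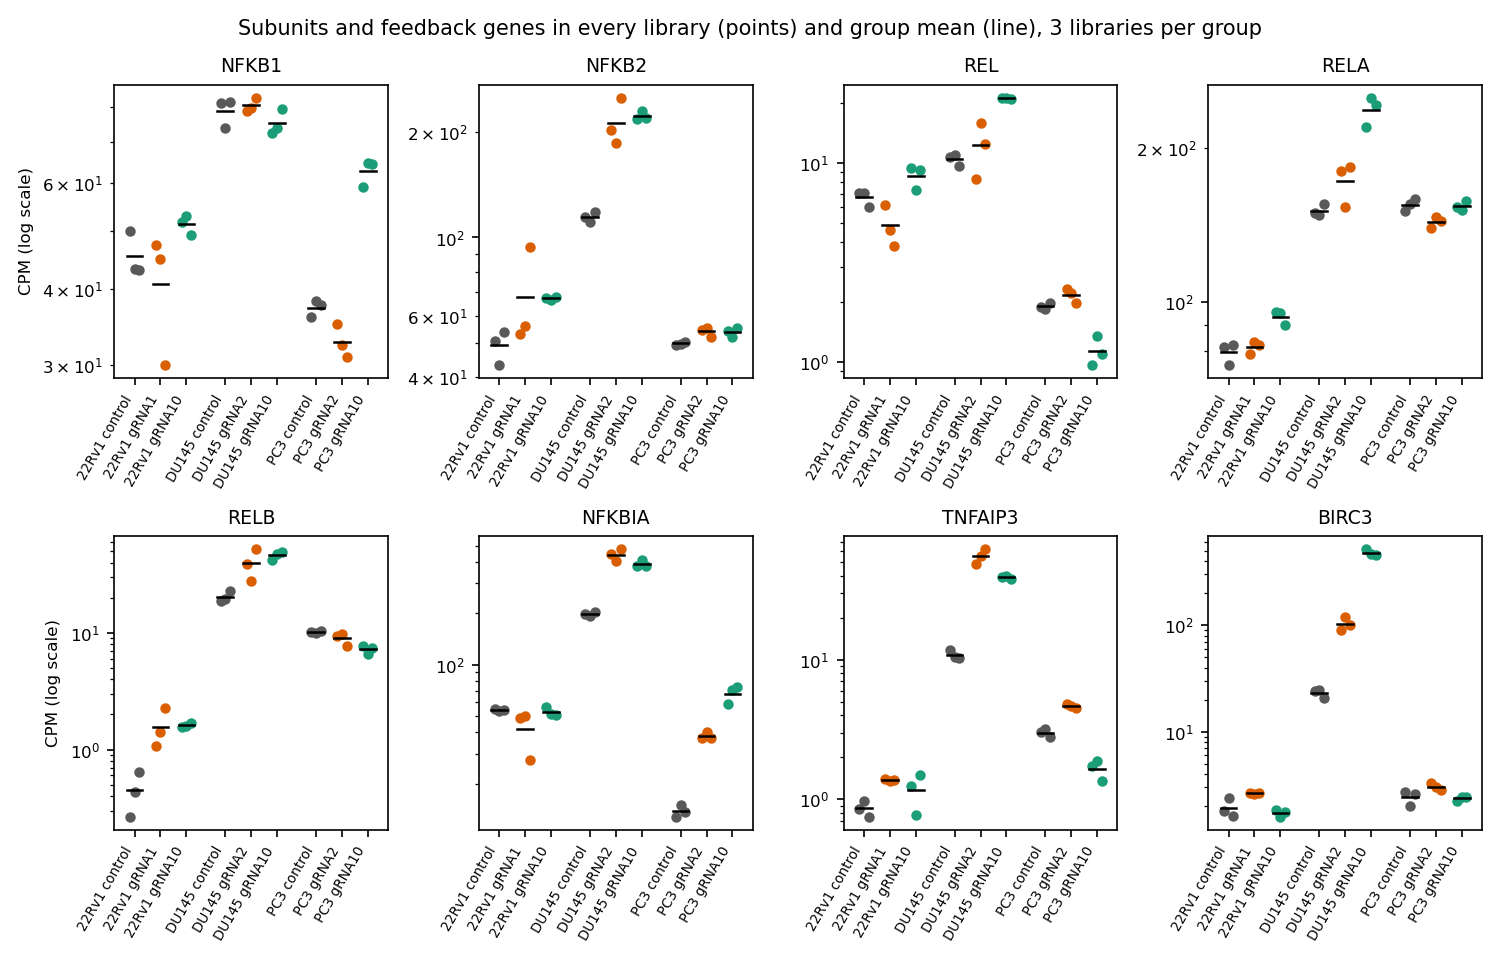
CPM (log axis) of the 5 subunit genes and 3 feedback genes in all 27 libraries, with points for libraries and lines for group means. NFKB2, RELB, NFKBIA, TNFAIP3 and BIRC3 are above the controls with both guides in DU145, as are NFKBIA in PC3 and, from few counts, RELB in 22Rv1.

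In 22Rv1, where much of the set was low or absent, as many members fell as rose. With gRNA1, 6 of the 31 members tested were higher and 6 lower, where 25.6% and 22.9% of all genes were. With gRNA10, 7 were higher and 7 lower, against 20.0% and 20.6%. The same direction was called with both guides for 4 rises (12.4% of all genes), RELB, NFKBIZ, BCL3 and CX3CL1, and 5 falls (12.3%), TNFAIP2, CYLD, IRAK2, CD83 and CD40. No member had opposite calls (2.43% of all genes). These shares are near or below those of all genes, and both contrasts share the 22Rv1 controls. Without the third gRNA1 library, 6 were higher and 8 lower with gRNA1, 10 higher and 8 lower with gRNA10, and 4 higher and 6 lower with both. Without RELB, which passed the filter through the knockout libraries, 5 and 6 of 30 members were higher, and 3 with both guides.

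The rises in 22Rv1 comprised 1 subunit, a pair of nuclear IkB proteins and a chemokine. RELB was low throughout, at 5, 8 and 12 counts in the controls, 20, 26 and 38 with gRNA1 and 30, 31 and 33 with gRNA10, with changes of 1.80 (SE 0.37) and 1.84 (SE 0.37) that are a description, for the reason given above. BCL3 went from 4.91, 3.55 and 4.77 CPM to 9.63, 11.0 and 18.3 and to 17.5, 20.9 and 18.4 (1.55, SE 0.24, and 2.10, SE 0.24; adjusted p = 0.000392 and 4.89e-05). NFKBIZ went from 8.0, 8.65 and 8.73 to 24.2, 25.2 and 41.9 and to 12.6, 12.6 and 13.7 (1.84, SE 0.20, and 0.61, SE 0.20; adjusted p = 3.19e-05 and 0.029), and the gRNA10 call was lost in 6 alternatives. CX3CL1 encodes fractalkine, a chemokine that is anchored in the membrane, and was the only chemokine of the set that could be tested in this line. It went from 14.4, 14.3 and 16.2 CPM to 45.2, 49.7 and 31.2 with gRNA1 and 91.2, 90.8 and 82.6 with gRNA10 (1.49, SE 0.16, and 2.56, SE 0.16; adjusted p = 3.33e-05 and 7.29e-07). For these 4 genes all knockout libraries lay above the controls, and for CX3CL1 the gRNA10 libraries lay above the gRNA1 libraries.

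The falls in 22Rv1 included receptors and signalling proteins. CD40, a receptor that activates the alternative arm, held 33, 30 and 25 counts in the controls, 1, 3 and 1 with gRNA1 and 5, 2 and 4 with gRNA10. The counts of the control group were 17-fold those of gRNA1 (95% exact interval 7.02 to 53.7, for counting error only) and 8.31-fold those of gRNA10 (4.42 to 17.2). CD83, a surface protein of antigen-presenting cells, held 56, 50 and 38 counts in the controls, 3, 9 and 11 with gRNA1 and 2, 2 and 3 with gRNA10. IRAK2 went from 8.27, 6.34 and 7.61 CPM to 2.56, 2.92 and 1.37 and to 4.80, 3.97 and 5.36 (-1.69, SE 0.25, and -0.65, SE 0.23; adjusted p = 0.000287 and 0.042), and the gRNA10 call was lost in 6 alternatives. CYLD, which removes the ubiquitin chains that signalling needs, went from 32.9, 37.9 and 30.3 to 24.5, 25.0 and 16.4 and to 16.1, 17.9 and 17.2 (-0.62, SE 0.16, and -0.98, SE 0.16; adjusted p = 0.00798 and 0.000574). TNFAIP2, a TNF-induced cytoplasmic protein, went from 21.3, 18.9 and 19.9 to 7.61, 7.62 and 18.5 and to 11.1, 11.7 and 11.1 (-0.84, SE 0.28, and -0.83, SE 0.28; adjusted p = 0.0311 and 0.0376). The third gRNA1 library held TNFAIP2 just below the controls, and without it the gRNA1 change was -1.41; the calls were lost in 6 and 7 alternatives.

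The guides of 22Rv1 also differed for 12 of the 31 members (35.6% of all genes), and for 16 without the third gRNA1 library. IER3 stood at 1.71, 1.5 and 1.55 CPM in the controls and 6.07, 7.08 and 9.34 with gRNA1 (2.23, SE 0.23, adjusted p = 2.28e-05), and LIF, a cytokine of the interleukin-6 family, at 3.09, 2.42 and 2.89 and then 6.92, 7.29 and 10.3 (1.54, SE 0.20, adjusted p = 0.000134). With gRNA10 the libraries of both overlapped the controls. SOD2 and SDC4 rose with gRNA10 (0.66 and 0.62), and CFLAR fell with it (-0.90, adjusted p = 5.67e-05), from 860, 991 and 804 counts to 472, 497 and 504. EFNA1 fell with gRNA1 (-0.76) and PTGS2 with gRNA10 (-0.97, lost in 6 alternatives). The canonical feedback genes were not called in this line: NFKBIA stood at 54.6, 53.1 and 54.2 CPM in the controls, 48.9, 49.8 and 27.4 with gRNA1 and 56.2, 51.6 and 50.5 with gRNA10. TNFAIP3 (adjusted p = 0.0687 and 0.235) and BIRC3 (adjusted p = 0.0826 and 0.592) held at most 29 and 50 counts in any library. Among the subunits, NFKB2 changed by 0.45 with each guide without passing the test (adjusted p = 0.0717 and 0.0858), and without the third gRNA1 library its gRNA1 change was 0.13 (adjusted p = 0.258) and its gRNA10 change passed (0.45, adjusted p = 0.000487). RELA passed with gRNA10 (0.23, adjusted p = 0.0442), a call that was lost in 10 alternatives, and NFKB1 and REL with neither guide. Without the third gRNA1 library, REL passed with gRNA10 (0.36, adjusted p = 0.0376), as did TNIP2 (adjusted p = 0.0255). In the same fit ICAM1 fell with gRNA1 (-1.32, adjusted p = 0.00361) and CSF1 with both guides (-0.58 and -0.41, adjusted p = 0.00845 and 0.0232).

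**Figure D4:**
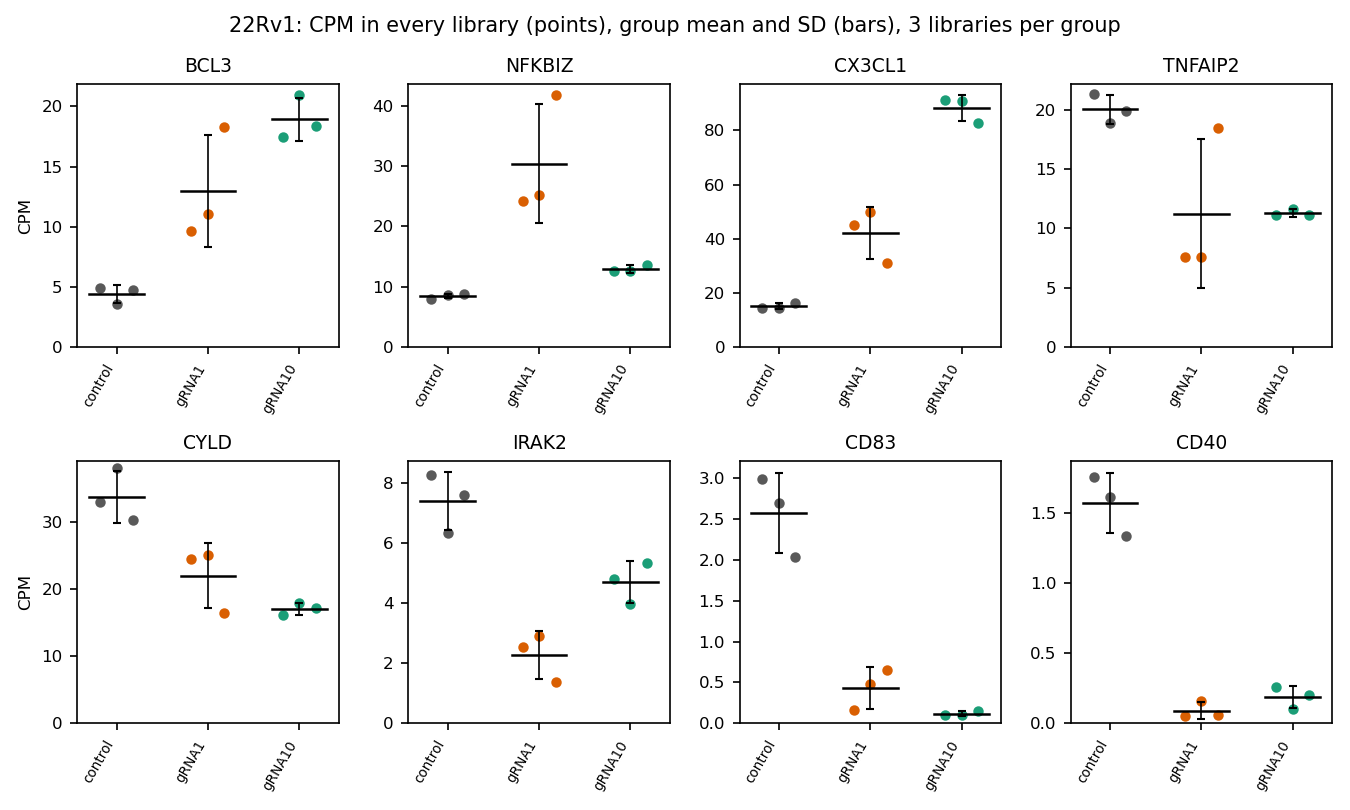
CPM of 8 members in 22Rv1, with 1 point per library, the mean as a line and the SD as bars, and the control, gRNA1 and gRNA10 groups on the horizontal axis. BCL3, NFKBIZ and CX3CL1 lie above the controls in all 6 knockout libraries and the other 5 genes below them; the third gRNA1 library is the nearest of its group to the controls for TNFAIP2.

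In PC3 members rose, fell or went in opposite directions with the guides at shares near those of all genes. With gRNA2, 12 of the 38 members tested were higher and 11 lower, against 32.1% and 31.5% of all genes (63.6% in either direction). With gRNA10, 17 were higher and 10 lower, against 37.9% and 35.6%. Among the 32 members whose controls alone passed the filter, 9 and 14 were higher, and 7 with both guides. The guides differed for 27 of the 38 members (71.1%), where 73.4% of all genes did. Rises with both were called for 9 members (17.9% of all genes), falls with both for 5 (16.3%) and opposite calls for 5 (15.5%, against 13.2% of the members), with the control libraries shared.

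The opposite calls in PC3 were IL1B, TNFAIP3, NFKB1, IER3 and ICAM1. IL1B, the interleukin 1 beta gene, held 289, 294 and 297 counts in the controls, 1632, 1778 and 1705 with gRNA2 and 31, 32 and 28 with gRNA10. It thus rose by 2.52 (SE 0.056, adjusted p = 3.68e-26) and fell by 3.31 on the log2 scale (SE 0.11, adjusted p = 1.52e-21), and the 3 groups did not overlap. TNFAIP3 likewise stood at 3.05, 3.18 and 2.78 CPM, 4.78, 4.63 and 4.50 with gRNA2 and 1.74, 1.88 and 1.35 with gRNA10 (0.63, SE 0.14, and -0.86, SE 0.17; adjusted p = 0.00022 and 4.98e-05). The other 3 genes went the other way round. NFKB1 stood at 36.0, 38.3 and 37.6 CPM, then 35.0, 32.4 and 30.9, then 58.9, 64.7 and 64.5 (-0.19, SE 0.057, and 0.75, SE 0.053; adjusted p = 0.00559 and 9.06e-14). IER3 changed by -0.19 and 0.77 and ICAM1 by -0.20 and 0.33, again without overlap of the 3 groups. LIF was moved by gRNA10 alone, from 53.9, 48.5 and 54.9 CPM to 370.4, 331 and 339.6 (2.73, SE 0.052, adjusted p = 5.5e-24), while its gRNA2 libraries overlapped the controls at 54.9, 59.5 and 53.6.

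**Figure D5:**
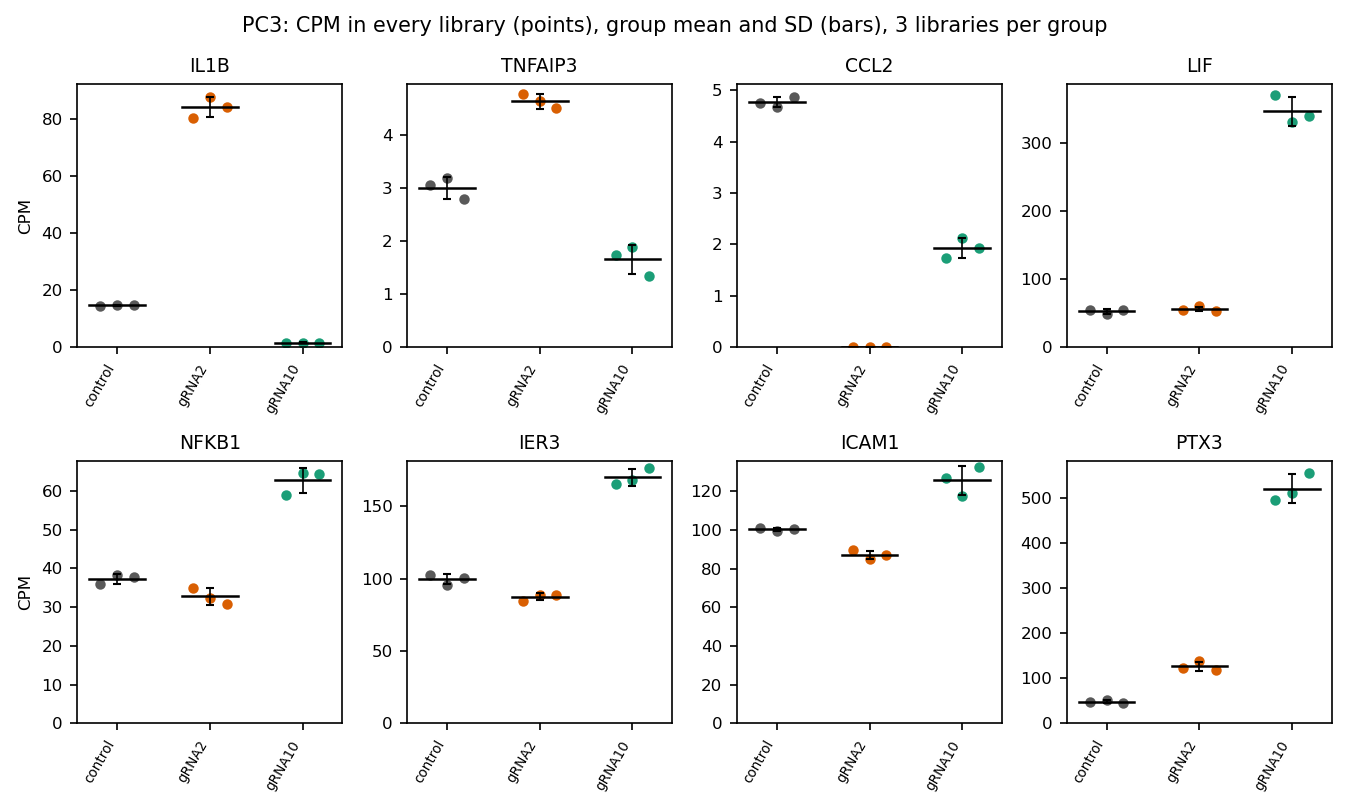
CPM of 8 members in PC3, with 1 point per library, the mean as a line and the SD as bars, and the control, gRNA2 and gRNA10 groups on the horizontal axis. IL1B and TNFAIP3 are above the controls with gRNA2 and below them with gRNA10, NFKB1, IER3 and ICAM1 the reverse, CCL2 is at 0 in all gRNA2 libraries, and PTX3 rises with both guides.

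Rises with both guides in PC3 were led by PTX3 and NFKBIA. PTX3 went from 48.1, 51.3 and 45.6 CPM to 124, 138 and 119 with gRNA2 and 496, 510.3 and 556 with gRNA10 (1.39, SE 0.064, and 3.43, SE 0.063; adjusted p = 1.04e-11 and 2.66e-17). NFKBIA went from 12.8, 15.0 and 13.7 to 37.0, 40.5 and 36.9 and to 58.6, 70.6 and 73.9 (1.46, SE 0.095, and 2.29, SE 0.088; adjusted p = 1.02e-09 and 6.58e-13). CD40 went from 5.74, 5.37 and 5.42 to 13.3, 12.3 and 12.9 and to 17.3, 16.7 and 17.3 (1.22, SE 0.091, and 1.63, SE 0.086; adjusted p = 5.22e-13 and 6.47e-17). For these genes the control, gRNA2 and gRNA10 libraries formed 3 separate groups in rising order. SDC4 rose by 0.56 and 0.48, IRAK2 by 0.54 and 0.43 and BCL3 by 0.24 and 0.83. SDC4 stood at 86.2, 78.5 and 82.9 CPM in the controls, 124, 119 and 122 with gRNA2 and 118, 116 and 112 with gRNA10. IRAK2 stood at 16.4, 19.1 and 19.2, then 28.2, 25.3 and 25.9, then 23.8, 23.7 and 26.2. BCL3 stood at 17.6, 19.2 and 18.3, then 19.9, 22.6 and 22.5, then 31.1, 35.0 and 32.0. None of these knockout libraries overlapped the controls. NFKB2 rose by 0.11 with each guide, and its calls were lost in 7 and 9 alternatives (adjusted p up to 0.124 and 0.12). LTB and IL32, an inflammatory cytokine, passed the filter through the knockout libraries and are described by their counts. LTB held 3, 1 and 1 in the controls, 19, 18 and 11 with gRNA2 and 12, 11 and 17 with gRNA10, and IL32 held 2, 0 and 4, then 14, 11 and 13, then 16, 24 and 21. CSF2 also passed the filter through the knockout libraries, so its values are a description. It held 2, 0 and 1 counts in the controls and 22, 17 and 18 with gRNA2, a ratio of 18.8. With gRNA10 it held 10 counts over the group, a ratio of 3.23.

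Falls with both guides in PC3 were those of SOD2, CFLAR, TNIP1, PTGS2 and CCL2. SOD2 went from 163, 159.9 and 159 CPM to 113, 109 and 104 and to 107, 109 and 107 (-0.56, SE 0.039, and -0.58, SE 0.039; adjusted p = 9.86e-14 and 2.68e-14). CFLAR went from 49.7, 52.5 and 56.0 to 32.2, 33.0 and 32.4 and to 47.4, 45.8 and 44.6 (-0.70, SE 0.053, and -0.20, SE 0.050; adjusted p = 7.73e-13 and 0.000774). TNIP1 fell by 0.32 and 0.44. All the knockout libraries of these genes lay below the controls. PTGS2 held 43, 50 and 49 counts in the controls, 0, 0 and 5 with gRNA2 and 5, 6 and 7 with gRNA10. CCL2 held 95, 94 and 98 counts in the controls, 0 in each gRNA2 library and 36, 44 and 40 with gRNA10. Against the 3 counts over the group that a count of 0 allows, CCL2 was at least 96.6-fold lower with gRNA2 than in the controls, and it fell by 1.30 on the log2 scale with gRNA10 (SE 0.15, adjusted p = 1.19e-08). The third gRNA2 library of PC3 held 55 counts of C3, where the other gRNA2 libraries held 9 and 12, and 42 of LCN2, where they held 11 and 10; neither gene was called with gRNA2. Of the remaining subunits, RELB and REL fell with gRNA10 (-0.47 and -0.74), and RELA changed by -0.11 with gRNA2, a call lost in 2 alternatives.

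No member was called in one direction in all 6 guide contrasts, that is with both guides in all 3 lines, where 0.125% of all genes tested in 3 lines were higher and 0.203% lower. Those higher with both guides in 2 lines numbered 7 of 37 tested in 2 or more lines (18.9%, against 3.55% of all genes): RELB and NFKBIZ in 22Rv1 and DU145, BCL3 in 22Rv1 and PC3, and NFKB2, NFKBIA, PTX3 and SDC4 in DU145 and PC3. RELB in 22Rv1 is there through the filter, PTX3 lost its DU145 gRNA2 call in 12 of 15 alternatives, and NFKB2 its PC3 calls in 7 and 9. In PC3 NFKBIZ also rose with gRNA10 (0.95, adjusted p = 2.21e-16), but not with gRNA2 (-0.04, adjusted p = 0.57). No fall was shared by 2 lines in this sense (4.19% of all genes). NFKBIB, TNIP2 and TRAF1 were tested in every line and, with all libraries, called in no guide contrast. In one model of all 27 libraries, the mean effect of both guides differed between DU145 and 22Rv1 for 22 of the 30 members tested in both lines (21 with the higher effect in DU145, 1 in 22Rv1), 73.3% where 53.3% of all genes tested in both lines differed. Over all genes of the model the shares were 58.5% (24 of 41) and 47.1%. Between DU145 and PC3 it differed for 25 of 36 (18 higher in DU145, 7 in PC3), 69.4% against 47.9%, and over the whole model for 61.0% of members against 42.2%. Between 22Rv1 and PC3 it differed for 17 of 30 (8 and 9), 56.7% against 51.8%, and over the whole model for 43.9% against 45.3%, so that the members were near the share of all genes. The mean hides the opposite guides of PC3 described above.

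Genes of the pathway outside the set did not move as a block in DU145. Of 42 receptors, adaptors, kinases and further inhibitors, 41 were tested there; 8 were higher and 9 lower with gRNA2, and 11 higher and 7 lower with gRNA10. These are 19.5%, 22.0%, 26.8% and 17.1%, where all genes gave 17.1%, 17.0%, 20.2% and 19.8%. MYD88, the adaptor of Toll-like and interleukin-1 receptors, fell with both guides in DU145 (-1.16 and -1.44), from 1119, 1140 and 1113 counts to 425 to 510 and 366 to 420. It also fell in 22Rv1 (-1.05 and -0.72) and rose with gRNA10 in PC3 (0.99). TLR2, a receptor for bacterial lipoproteins, held 2, 0 and 3 counts in the DU145 controls, 44, 57 and 43 with gRNA2 and 34, 17 and 20 with gRNA10. In 22Rv1, 10 and 5 of the 35 tested were higher (28.6% and 14.3%, against 25.6% and 20.0%). There 6 and 4 were lower (17.1% and 11.4%, against 22.9% and 20.6%). In PC3, 14 and 22 of 38 were higher (36.8% and 57.9%, against 32.1% and 37.9%). There 11 and 8 were lower (28.9% and 21.1%, against 31.5% and 35.6%). The CXCR2 ligands CXCL1, CXCL2, CXCL3 and CXCL8, neutrophil chemokines outside the set, rose with both guides in DU145 (4 of 4), with CXCL8 at 196, 229 and 213 counts in the controls, 1197, 1630 and 2712 with gRNA2 and 1038, 955 and 918 with gRNA10. None was tested in 22Rv1, and in PC3 CXCL8 fell with both guides (-1.39 and -1.16), CXCL1 fell with gRNA2 (-1.52), and CXCL2 and CXCL3 rose with gRNA10 (1.15 and 1.01).

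Other genes moved in the same populations. Epithelial markers in DU145 summed to 16593 to 17231 counts in the controls, 30504 to 50919 with gRNA2 and 28395 to 30927 with gRNA10. In the same libraries PTPRC held 0 or 1 counts. CD14 held 60, 40 and 62 counts in the controls, 28, 22 and 8 with gRNA2 and 55, 46 and 53 with gRNA10. ITGAM held 31, 29 and 29, then 12, 10 and 3, then 59, 46 and 58, and CSF1R held 10, 17 and 7, then 11, 6 and 3, then 2, 4 and 4. In PC3 the epithelial markers summed to 14749 to 15273 counts in the controls, 18685 to 19717 with gRNA2 and 33932 to 36607 with gRNA10. The part of these shifts in the results above was not tested, and in bulk libraries fewer cells of a type and less RNA per cell cannot be told apart.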

How the data were processed

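Bulk RNA was measured in 27 libraries, all strand-specific mRNA libraries with paired-end DNBSEQ reads, as the labels' protocols state. In 1 table per line the authors deposited raw read counts per gene symbol, per the file headers. The submitters' processing notes name FastQC, STAR and edgeR with the build hg38; the counting program, the annotation and the aligner's settings are not given in the sources used here. Groups and replicate numbers came from the sample titles, and table columns were matched through library names. Duplicate symbols were summed (6 in 22Rv1, 2 in DU145, 2 in PC3).

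In R 4.3.3, edgeR 4.0.16 was run per line on the 9 libraries: filterByExpr (count 10, total 15) (15198, 14908 and 14718 genes tested), TMM scaling, group as the only term, robust quasi-likelihood F test (two-sided), Benjamini-Hochberg adjustment over all genes, threshold 0.05. Standard errors came from the F statistic. Differences between lines were tested in a joint model of 16322 genes. CPM are counts divided by the TMM-scaled library size. Alternatives were RLE factors, DESeq2 1.42.0, other filters, only the groups compared, a replicate block and leaving out each library; those for counts over both guides were added after seeing the data. On simulated data with 200 genes changed by a fold of 2, the fit recovered 75% in 22Rv1 (gRNA1, 14536 genes), 83.5% in DU145 (gRNA2, 14456 genes) and 87.5% in PC3 (gRNA2, 14073 genes). False calls numbered 9, 9 and 10. The simulation held no library that stood apart from its group, as the real data did.

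The members and the lists of pathway genes and markers were chosen with earlier results of these data known. Values in every library are given for NFKB1, NFKB2, RELB, RELA, REL, NFKBIA, TNFAIP3 and BIRC3 and, in each line, for up to 8 members with the largest mean change that both guides moved the same way past the threshold, given 100 or more counts on average in some group; other genes shown with their libraries, such as IL1B, LIF, CCL2, CD40 and CD83, were chosen after their values were seen. Sequences are from RefSeq (GRCh38.p14). Intervals and limits for low counts cover counting error only, since the reads carry no molecular identifiers. Some marker genes are not reported here.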

Additional observations from a re-analysis of the deposited data

Results flagged for a closer look

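Several genes changed in opposite directions in different lines. They were picked because both guides were called in opposite directions in a pair of lines. The differences below come from the same libraries, so their p-values describe the picked genes and add no support. In the joint model of all 27 libraries, the mean effect of both guides in DU145 minus that in 22Rv1 was -2.33 on the log2 scale for BCL3 (adjusted p = 1.13e-09), 1.15 for CYLD (adjusted p = 2.48e-07) and 2.02 for TNFAIP2 (adjusted p = 9.45e-08). DU145 minus PC3 gave -1.03 for BCL3 (adjusted p = 6.39e-05), 2.55 for SOD2 (adjusted p = 2.91e-10) and 1.45 for TNIP1 (adjusted p = 1.98e-11). 22Rv1 minus PC3 gave -4.91 for CD40 (adjusted p = 1.01e-14) and -1.64 for IRAK2 (adjusted p = 1.86e-08). Of 41 members in that model, 24 differed between DU145 and 22Rv1 (47.1% of all genes), 25 between DU145 and PC3 (42.2%) and 18 between 22Rv1 and PC3 (45.3%).

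Other genes were called in opposite directions by the guides of 1 line. They too were picked for those calls in the same libraries, so the p-values of the differences between guides add no support. In DU145, gRNA2 minus gRNA10 was -3.21 for CCL2 (adjusted p = 6.54e-07), in a line where gRNA10 left RIPK2 at 670 to 723 counts and gRNA2 at 199 to 274. In PC3 the same difference was 5.84 for IL1B (adjusted p = 5.14e-31), 1.48 for TNFAIP3 (adjusted p = 6.71e-10), -0.94 for NFKB1 (adjusted p = 5.75e-16), -0.96 for IER3 (adjusted p = 3.42e-19) and -0.53 for ICAM1 (adjusted p = 2.69e-12). RIPK2 held 406 to 441 counts with gRNA2 and 527 to 588 with gRNA10 in PC3. The part of the guides' different RIPK2 levels in these differences was not tested.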

How the results depend on the processing

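There were 134 calls of a member with a guide against its control. Of these, 117 were kept under every alternative in which the gene was tested, 17 were lost in at least 1 and 0 changed sign. Genes that a filter removed, such as CD40 and CD83 in 22Rv1 under the minimum of 10 counts, were not counted as lost there. Relative to their size, counts of falls moved most, while rises with both guides in DU145 ranged from 16 to 23 with a library left out. Lower members with gRNA10 in 22Rv1 numbered 7, 4 with at least 10 counts required in every library, and 4 to 8 when each library was left out in turn (8 without the third gRNA1 library). In DU145 the 2 falls with gRNA2 ranged from 2 to 4 and the 2 with gRNA10 from 2 to 5 with a library left out, the highest without the third gRNA2 library, and the latter were 5 with only the groups compared. Falls with both guides were 5 in 22Rv1, 3 under the same minimum of 10 counts and 3 to 6 with a library left out. They were 1 in DU145 (1 to 3) and 5 in PC3, 3 under that minimum. The cause of these moves was not tested, beyond the fewer genes tested under the count minimum. Replicate numbers did not pair the libraries: of 27 pairs of same-numbered libraries, 1 correlated above 0.1 and 10 correlated best with their own number. With the replicate block, members higher with both guides were 5 in 22Rv1, 19 in DU145 and 11 in PC3, and no count moved by over 1.5 times.

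Values that were not called changed sign for 24 of the gene and guide pairs. RELA with gRNA1 in 22Rv1 was -0.021 with no low-count filter, TNIP1 with gRNA1 in 22Rv1 0.0053 and CD83 with gRNA10 in PC3 0.0032 under the minimum of 10 counts, and LIF with gRNA10 in 22Rv1 0.0032 with only the groups compared. With each library left out in turn, these log2 fold changes crossed 0. Under 22Rv1 gRNA1, the range was NFKB1 from -0.28 to 0.014, RELA from -0.012 to 0.054, NFKBIB from -0.033 to 0.13, TRAF1 from -0.35 to 0.64, SOD2 from -0.25 to 0.040, TNIP1 from -0.13 to 0.046 and MAP3K8 from -0.18 to 0.94. Under 22Rv1 gRNA10, the range was BIRC3 from -0.27 to 0.021, TRAF1 from -0.067 to 0.18, LIF from -0.10 to 0.11, IER3 from -0.24 to 0.078 and EFNA1 from -0.038 to 0.13. Under DU145 gRNA2, the range was NFKB1 from -0.016 to 0.054, REL from -0.0061 to 0.45, NFKBIB from -0.54 to 0.075, TRAF1 from -0.042 to 0.17 and CSF1 from -0.19 to 0.053. Under PC3 gRNA2, the range was NFKBIE from -0.013 to 0.045, NFKBIZ from -0.072 to 0.013 and CSF1 from -0.072 to 0.18. Under PC3 gRNA10, the range was RELA from -0.031 to 0.0084, NFKBIB from -0.072 to 0.049, BIRC3 from -0.17 to 0.054 and CD83 from -0.089 to 0.11. Genes at a few counts per library are limited by depth.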

Other observations

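Members too low for the test held a few counts that differed between populations. TNF, the cytokine that gives the pathway its classical stimulus, held 3, 1 and 2 counts in DU145 controls, 2, 3 and 2 with gRNA2 and 10, 8 and 11 with gRNA10. IL6 in PC3 held 3, 3 and 2 counts in the controls, 8, 8 and 13 with gRNA2 and 9, 4 and 6 with gRNA10. CCL20 in PC3 held 1, 1 and 0 counts, then 2, 2 and 3, then 5, 8 and 8. With all libraries these values have no test.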
